A study of Mus musculus with 4 samples.

Results

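The genes described here encode the enzymes that remove superoxide and peroxides, the thioredoxin and glutathione systems that keep many of these enzymes reduced, and the targets and control genes of the transcription factor Nrf2. They were chosen by symbol from a list of 41 genes, of which 40 were measured and tested among the 12693 genes of the deposited table. *Srxn1*, which encodes sulfiredoxin, was not analysed here. RNA-seq was performed on brain endothelial cells (ECs) sorted with CD31 from the cerebral cortex of C57BL/6 mouse embryos at embryonic day 18 (E18). Of the 4 samples, 2 were wild-type and 2 were *Foxq1* cKO samples of the genotype FOXQ1fl/fl;Tie2-Cre, in which a Cre driven by the *Tie2* promoter deletes the floxed gene for the forkhead transcription factor FOXQ1. *Tie2*-Cre is known to act in endothelial cells and also in blood-forming lineages, so a loss of *Foxq1* need not be limited to ECs. For the study as a whole, littermates without the Cre transgene served as controls.

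Superoxide dismutases turn superoxide into hydrogen peroxide, and catalase, glutathione peroxidases and peroxiredoxins turn peroxides into water or alcohols. Glutathione and thioredoxin supply the electrons for the peroxidases and peroxiredoxins, and both are reduced again at the expense of NADPH. Nrf2, encoded by *Nfe2l2*, is held in the cytoplasm and targeted for degradation by Keap1. When electrophiles or oxidants modify Keap1, Nrf2 enters the nucleus, pairs with small Maf proteins and binds the antioxidant response element (ARE) of its target genes. Brain ECs are rich in mitochondria and face both blood oxygen and blood-borne oxidants, so these genes are widely studied at the blood-brain barrier.

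Values are normalized counts, which are the read counts divided by a size factor for each sample. *Foxq1* itself had 353 and 297 normalized counts in wild-type cells and 5.44 and 32.6 in the *Foxq1* cKO samples, so the labels and the targeted gene matched in all 4 samples. The samples held between 15827166 and 21466436 reads on the listed genes. All 12 endothelial markers examined, among them *Pecam1*, which encodes CD31, were present, and their summed normalized counts were 415612 and 390041 in wild-type cells, compared with 343439 and 388806 in *Foxq1* cKO cells. Of these 12 markers, 10 had estimates below 0, beside 6149 of all 12472 genes tested, and their median log2 fold change was -0.16. Without overlap, 7 of the 12 were lower in both *Foxq1* cKO samples, beside 18% of all genes tested. Only *Flt1* had an unadjusted p under 0.05 in limma (0.0463, lower), beside 3.05% of all genes tested that were lower at this threshold. The part of this difference in the results for the antioxidant genes was not tested. Of 12 mural and fibroblast markers looked for, 7 were measured, and their summed counts ranged from 129442 to 140598. Of 12 neural markers 11 were measured, with sums from 23293 to 24418. Of 13 erythroid markers 7 were measured, with sums from 15770 to 20859. All 12 microglia and macrophage markers were measured, with sums from 7905 to 12362. None of the measured markers was at 0 in any sample, because the table lists only genes with at least 1 read in each sample. For the same reason a gene lost completely in 1 group could not have been measured.

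Across the 40 antioxidant genes the estimated differences between *Foxq1* cKO and wild-type cells lay in both directions. Of the 40 estimates, 18 were under 0.2 in absolute log2 fold change. The estimates for 23 genes lay above 0 and those for 17 below 0, and the median log2 fold change of the *Foxq1* cKO samples over the wild-type samples was 0.033, compared with 0.0086 for all 12472 genes tested. *Txnrd1*, the cytosolic thioredoxin reductase, was higher in the *Foxq1* cKO samples, and *Hmox1*, the inducible heme oxygenase, was lower. These 2 genes, 5% of the 40, had an unadjusted p under 0.05 in limma, as did 5.22% of all genes tested. One gene in each direction is 2.5% of the list, beside 2.17% of all genes higher and 3.05% lower in the *Foxq1* cKO samples. After Benjamini-Hochberg adjustment over all genes limma called none of the 40 and 0% of all genes, and the smallest adjusted p was 0.857. The edgeR quasi-likelihood test on the recovered reads also called 0 of the 40 after adjustment. DESeq2 on the same reads called 1 of the 40 at an adjusted p under 0.05, which was *Txnrd1*, beside 0.473% of all genes. In what follows a gene passed the test where its unadjusted p in limma was under 0.05. Fold changes are on the scale of log2(normalized count + 1).

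The smallest p that exact two-sided permutation of 2 samples against 2 allows for any gene is 0.333. The values of the *Foxq1* cKO and wild-type samples did not overlap for 15 of the 40 genes (37.5%), 9 of them higher (22.5%) and 6 lower (15%) in the *Foxq1* cKO samples. Among all genes tested the groups did not overlap for 36%, with 18% higher and 18% lower. The share for the list was thus close to that for all genes.

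**Figure D1:**
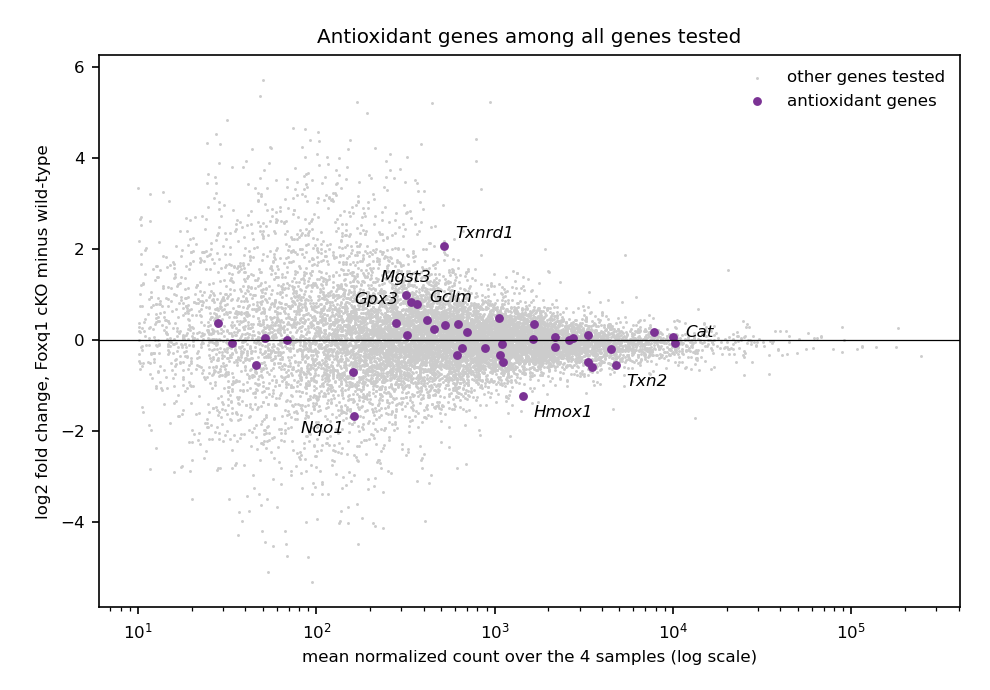
Each point is a gene, with its mean normalized count over the 4 samples on the horizontal axis (log scale) and its log2 fold change, *Foxq1* cKO minus wild-type, on the vertical axis. The 40 antioxidant genes (purple) lie within the cloud of all genes tested (grey), between -1.67 for *Nqo1* and 2.07 for *Txnrd1*, and the 8 labelled genes are described in the text.

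The ARE contains the core TGACNNNGC, which was searched on both strands in windows of 250 bases before to 50 bases after each start site (RefSeq, GRCm38.p6, matched by symbol). Windows were given for 35 of the 41 listed genes (not for *Sod3*, *Prdx6*, *Gsr*, *Gclc*, *Hmox1* and *Gsta4*), and 8 of the 35 (22.9%) held the core, compared with 13.99% of 27025 genes with a window. A match describes the letters of this window and does not show that Nrf2 binds there. For the 7 of the 8 genes that were measured, the core is shown in capitals with 10 bases on each side, 5′ to 3′ on the strand of the gene, so that the element of *Txnrd1* can be compared with those of the other genes. The core reads forward in *Gstm5* and *Nfe2l2* and as its reverse complement in the other 5 genes.
Txnrd1: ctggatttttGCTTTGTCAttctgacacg
Gclm: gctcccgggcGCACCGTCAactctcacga
Prdx1: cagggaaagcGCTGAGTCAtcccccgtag
Sod1: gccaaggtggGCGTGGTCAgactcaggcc
Gstm5: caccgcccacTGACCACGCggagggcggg
Mgst1: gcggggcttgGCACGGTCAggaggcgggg
Nfe2l2: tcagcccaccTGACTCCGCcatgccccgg
The stretch shown lies at chr10:82859104-82859132 (+) for *Txnrd1*, with the core 92 to 84 bases upstream of the start site. It lies at chr3:122245413-122245441 (+) for *Gclm*, chr4:116685456-116685484 (+) for *Prdx1* and chr16:90220696-90220724 (+) for *Sod1*. It lies at chr3:107895802-107895830 (+) for *Gstm5*, chr6:138140461-138140489 (+) for *Mgst1* and chr2:75704885-75704913 (-) for *Nfe2l2*. The levels of these 7 genes did not follow 1 direction: *Txnrd1* and *Gclm* were higher and *Gstm5* lower in both *Foxq1* cKO samples, and the groups overlapped for the other 4. The forkhead core GTAAACA, searched in the same way, was found in the windows of 2 of the 35 genes (*Glrx2* and *Txnip*), or 5.71%, compared with 4.05% of all genes with a window.

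The whole 250 bases upstream of the *Txnrd1* start site (chr10:82858956-82859205, + strand) are given because this gene had the largest difference of the 40. The capitals mark the ARE core.
Txnrd1 upstream: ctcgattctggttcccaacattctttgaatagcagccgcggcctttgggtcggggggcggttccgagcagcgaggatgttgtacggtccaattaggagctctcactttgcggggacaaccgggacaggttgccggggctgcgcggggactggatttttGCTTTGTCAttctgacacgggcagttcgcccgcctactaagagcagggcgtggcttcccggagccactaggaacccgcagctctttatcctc

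Levels can be compared between genes only per length, and for this the normalized counts were divided by the exonic length of each gene in kb. Catalase (*Cat*) had the highest mean over the 4 samples, at 3919 normalized counts per kb. It was followed by *Prdx1* at 3290, the glutathione S-transferase *Gstm1* at 3067, *Prdx2* at 2573, thioredoxin (*Txn1*) at 1578 and *Gpx4* at 1509 normalized counts per kb. By this measure *Cat*, *Prdx1* and *Prdx2* were the most abundant peroxide-removing transcripts of the list in these sorted samples. The samples also held mural and erythroid transcripts, and the part of each cell type in these levels was not tested. The length was that of all annotated exons, which for *Prdx2* is 3050 bases, whereas its longest coding transcript has 1612. The order of these genes can therefore change with the length used. *Gclc*, the catalytic subunit of the enzyme that starts glutathione synthesis, was the least abundant at 8.92 normalized counts per kb. In single samples the 40 genes ranged from 18.5 to 11016 normalized counts, or 17 to 13073 reads.

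**Figure D2:**
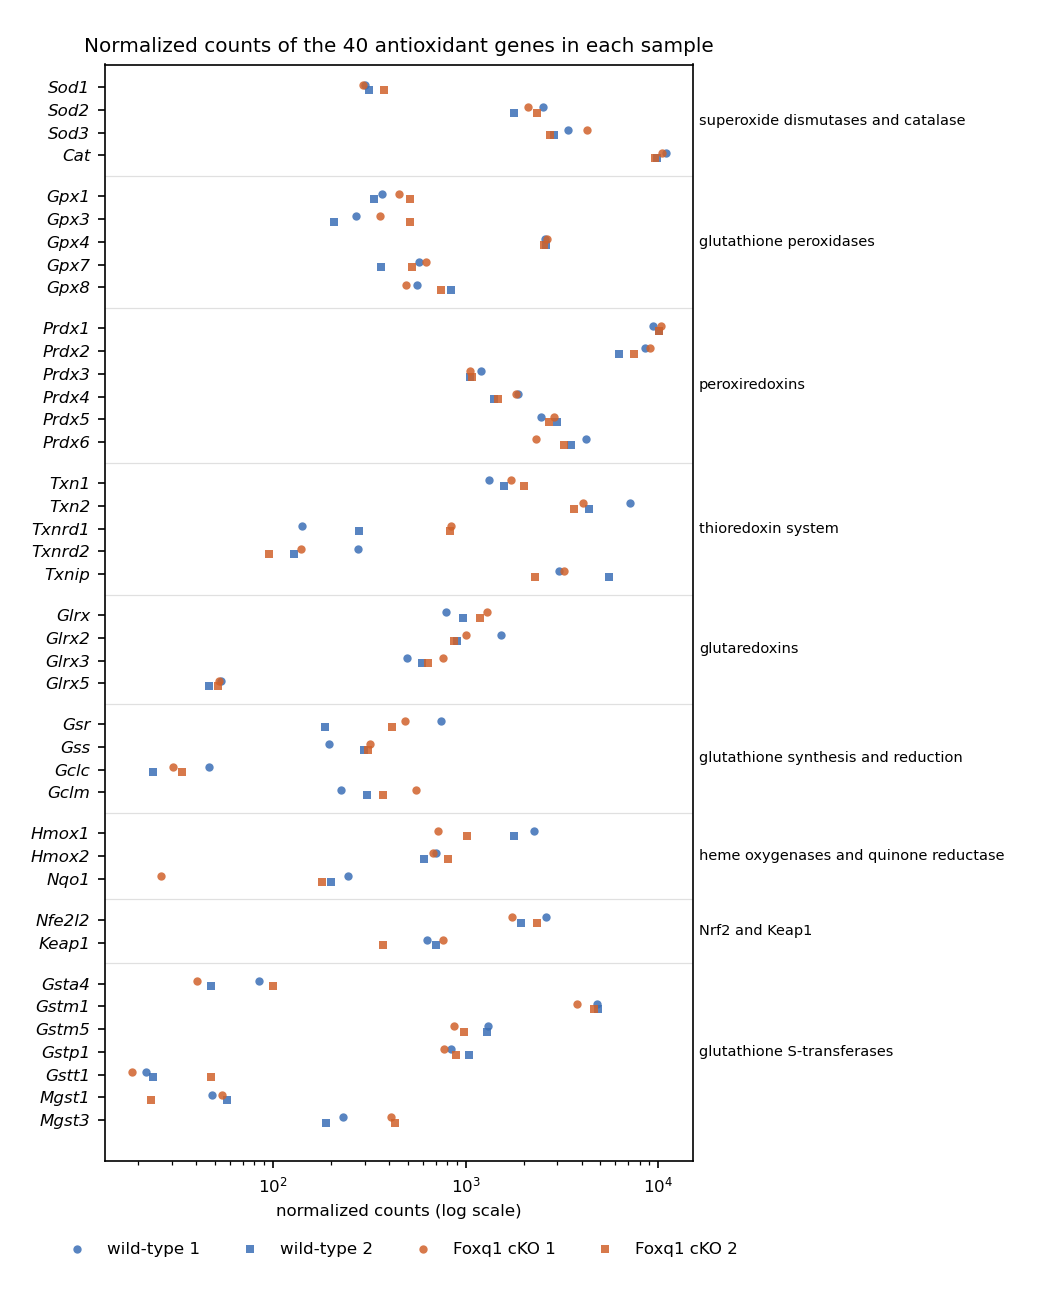
Normalized counts (log scale) of the 40 antioxidant genes, grouped by role, in the 2 wild-type samples (blue) and the 2 *Foxq1* cKO samples (orange); circles are replicate 1 and squares replicate 2. Samples lie close together for *Cat*, *Gpx4* and *Prdx1*, whereas the groups are apart for *Txnrd1*, *Hmox1* and *Mgst3*, and *Nqo1* is low in *Foxq1* cKO 1 only.

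The estimates for the first line of defense lay near 0. None of the 3 superoxide dismutases or catalase passed the test, and their groups overlapped. *Cat* had 11016 and 9903 normalized counts in wild-type cells and 10428 and 9611 in the *Foxq1* cKO samples. Its log2 fold change was -0.06, with a 95% interval of -0.39 to 0.27, so a difference of 2-fold in either direction lay outside the interval. The estimates were 0.11 for *Sod1*, the cytosolic copper-zinc enzyme, 0.06 for *Sod2*, the mitochondrial manganese enzyme, and 0.12 for *Sod3*, the extracellular enzyme. The interval of *Sod1* was wider, from -1.06 to 1.27, and reached beyond 2-fold in both directions. Per length of all annotated exons, *Sod3* was the highest of the 3 dismutases at 888 normalized counts per kb, compared with 219 for *Sod2* and 81.2 for *Sod1*. For *Sod1* this length was 3970 bases, whereas its longest coding transcript has 641, of which a stretch of 465 matches *Gm8566*. The order of the 3 can therefore change with the length used.

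The glutathione peroxidases contained 1 gene with a larger difference. *Gpx3*, the secreted plasma form, had 271 and 208 normalized counts in wild-type cells and 359 and 513 in the *Foxq1* cKO samples. Both *Foxq1* cKO values were above both wild-type values, but they also differed from each other. The log2 fold change was 0.85 ± 0.50 (SE), and limma gave an unadjusted p of 0.140. *Gpx1*, the cytosolic form, was also higher in both *Foxq1* cKO samples, by 0.45 on the log2 scale, without passing the test. *Gpx4*, which removes lipid peroxides from membranes and protects against ferroptosis, had between 2567 and 2640 normalized counts in all 4 samples, with a log2 fold change of 0.0023 and an interval of -0.45 to 0.46. *Gpx7* and *Gpx8*, which act in the endoplasmic reticulum, had estimates of 0.33 and -0.17 and overlapping groups.

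Among the 6 peroxiredoxins none passed the test. *Prdx1* and *Prdx2*, the cytosolic 2-cysteine enzymes, held the largest shares of the peroxiredoxin transcripts per length, with *Prdx1* at 32.2% to 37.5% in the wild-type and 34.7% to 36.3% in the *Foxq1* cKO samples. The estimates for *Prdx1* to *Prdx5* lay between -0.08 and 0.18 on the log2 scale. *Prdx6*, the 1-cysteine enzyme that also repairs oxidized phospholipids, had 4211 and 3519 normalized counts in wild-type and 2334 and 3240 in the *Foxq1* cKO samples. The groups did not overlap, and its log2 fold change was -0.49 ± 0.23 (SE), with an unadjusted p of 0.0807 in limma. The median of the 6 estimates was 0.033, whereas their mean was -0.043.

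The thioredoxin system held the largest difference of all 40 genes. *Txnrd1* encodes the selenoprotein that reduces cytosolic thioredoxin, and it is a well-known target of Nrf2. It had 142 and 279 normalized counts in wild-type cells (210 ± 97.3, SD, n = 2) and 840.4 and 830.1 in the *Foxq1* cKO samples (835 ± 7.31, SD, n = 2). The *Foxq1* cKO samples lay close together and far above both wild-type samples, which differed from each other by nearly as much as 2-fold. The log2 fold change was 2.07 ± 0.50 (SE), with a 95% interval of 0.84 to 3.29. Its unadjusted p was 0.00607 and its adjusted p 0.857 in limma, whereas DESeq2 gave an adjusted p of 0.0399 and edgeR one of 0.940. The estimate stayed between 1.58 and 2.55 when each sample was left out in turn, and the unadjusted p between 0.0014 and 0.0463. In each of these fits the lone sample left in a group was assumed to vary like the other group. Of 3 annotated genes that overlap *Txnrd1*, *Eid3* among them, 1 lies on the same strand and 2 on the other. Where they overlap, reads of the 2 on the other strand cannot be told apart from those of *Txnrd1* without strand. Reads of the 1 on the same strand could not be told apart by strand in any case.

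*Txnrd1* is 1 of 3 thioredoxin reductases, and the make-up of this family differed between the groups. *Txnrd1* held 7.97% and 38.1% of the thioredoxin reductase transcripts per length in wild-type cells, compared with 77.5% and 80.2% in *Foxq1* cKO cells. *Txnrd3*, a form with an added glutaredoxin domain that is best known from testis, held 66.9% and 33.7% in the wild-type and 1.76% and 4.91% in the *Foxq1* cKO samples. *Txnrd3* itself had 475 and 98.7 normalized counts in wild-type and 7.62 and 20.3 in the *Foxq1* cKO samples, with a log2 fold change of -4.01 ± 1.12 (SE). Its unadjusted p in limma was 0.0113, and its adjusted p in DESeq2 was 0.0140. The unadjusted p was 0.0619 without wild-type 1 and 0.0595 without *Foxq1* cKO 1. *Txnrd2*, the mitochondrial reductase, had 277 and 129 normalized counts in wild-type and 139 and 95.6 in the *Foxq1* cKO samples, and the groups overlapped.

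The other members of the thioredoxin system had smaller differences. *Txn2*, mitochondrial thioredoxin, had 7156 and 4385 normalized counts in wild-type and 4056 and 3643 in the *Foxq1* cKO samples. Wild-type 1 stood above the other 3 samples, and the log2 fold change of -0.54 ± 0.26 (SE, unadjusted p = 0.0797 in limma) was -0.19 without that sample. Cytosolic thioredoxin, *Txn1*, was higher in both *Foxq1* cKO samples, with a log2 fold change of 0.36 and an interval of -0.23 to 0.96. *Txnip*, an arrestin-like protein that binds and inhibits thioredoxin, had 3064 and 5541 normalized counts in wild-type and 3229 and 2293 in the *Foxq1* cKO samples. Its groups overlapped, and limma gave an unadjusted p of 0.120. The median of the 5 estimates of this system was -0.54, whereas their mean was 0.12.

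The glutaredoxins reduce protein disulfides with glutathione or carry iron-sulfur clusters, and none of the 4 passed the test. *Glrx*, the cytosolic form, had 791 and 974 normalized counts in wild-type and 1286 and 1186 in the *Foxq1* cKO samples. The log2 fold change was 0.49 ± 0.28 (SE), with an unadjusted p of 0.133 in limma. *Glrx3*, a carrier of iron-sulfur clusters in the cytosol, was also higher in both *Foxq1* cKO samples, by 0.36 on the log2 scale. The mitochondrial members *Glrx2* and *Glrx5* had estimates of -0.33 and 0.05 and overlapping groups.

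Genes of glutathione synthesis were low to moderate in these samples, and none of the 4 genes of synthesis and reduction passed the test. *Gclm*, the regulatory subunit of glutamate-cysteine ligase and a known Nrf2 target, had 226 and 307 normalized counts in wild-type cells and 556 and 373 in the *Foxq1* cKO samples. Both *Foxq1* cKO values were higher, with a log2 fold change of 0.79 ± 0.50 (SE) and an unadjusted p of 0.161 in limma. Its catalytic partner *Gclc* was read only 24 to 55 times per sample, and its interval ran from -2.36 to 2.24. *Gss*, which completes glutathione, was higher in both *Foxq1* cKO samples by 0.39 on the log2 scale. *Gsr*, which reduces oxidized glutathione, had 748 normalized counts in wild-type 1 and 187 in wild-type 2, a larger gap than that between the groups.

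*Hmox1* was the gene of the list with the clearest lower level. It encodes the inducible enzyme that degrades heme to biliverdin, carbon monoxide and iron, and is among the best known targets of Nrf2. It had 2258 and 1792 normalized counts in wild-type cells (2025 ± 330, SD, n = 2) and 721 and 1019 in the *Foxq1* cKO samples (870.0 ± 211, SD, n = 2). Both *Foxq1* cKO samples lay well below both wild-type samples, and their mean was 43.0% of that in wild-type cells. The log2 fold change was -1.23 ± 0.30 (SE), with a 95% interval of -1.96 to -0.50. The unadjusted p was 0.00598 and the adjusted p 0.857 in limma, and the adjusted p was 0.0626 in DESeq2 and 0.940 in edgeR. When single samples were left out the estimate lay between -1.48 and -0.98, and the unadjusted p between 0.00775 and 0.0418. The constitutive isoform *Hmox2* had 703 and 605 normalized counts in wild-type and 675 and 812 in the *Foxq1* cKO cells, with overlapping groups. Per length, *Hmox1* accordingly held 78.9% to 80.3% of the heme oxygenase transcripts in the wild-type and 57.5% to 61.4% in the *Foxq1* cKO samples.

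Macrophages also make much *Hmox1*, and transcripts of these cells were present in the sorted samples. The 12 microglia and macrophage markers summed to 9951 and 12362 normalized counts in wild-type cells and to 7905 and 8189 in the *Foxq1* cKO samples, so the *Foxq1* cKO mean was 0.721 of the wild-type mean. Of the 12 markers, 5 had estimates below 0 and 7 above 0, with a median of 0.09. The 5 below 0 (*Csf1r*, *Cx3cr1*, *C1qa*, *C1qb* and *P2ry12*) had wild-type means of 943 to 2972 normalized counts. The 7 above 0 had wild-type means of 49.5 to 620. Without overlap, 3 markers were lower and 3 higher in both *Foxq1* cKO samples, beside 18% of all genes tested in each direction. Of the 12, only *Csf1r*, the receptor for colony-stimulating factor 1, had an unadjusted p under 0.05 in limma (0.0109), at a log2 fold change of -0.83. The sum of the erythroid markers, in contrast, was 0.997 of the wild-type mean. The part of either cell type in the *Hmox1* difference was not tested, and in such bulk samples fewer cells of a type and less RNA per cell cannot be told apart.

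*Nqo1*, the quinone reductase that is often used as a readout of Nrf2, had the lowest estimate of the 40 genes, but it rested on 1 sample. It had 244 and 201 normalized counts in wild-type cells, 26.1 in *Foxq1* cKO 1 and 180.1 in *Foxq1* cKO 2. *Foxq1* cKO 2 was only slightly below wild-type 2, and *Foxq1* cKO 1 was far below all others. The log2 fold change of -1.67 ± 1.04 (SE, unadjusted p = 0.158 in limma) was -0.30 without *Foxq1* cKO 1 and -3.04 without *Foxq1* cKO 2.

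The transcripts of Nrf2 and of its inhibitor did not pass the test. *Nfe2l2* had 2613 and 1943 normalized counts in wild-type cells and 1749 and 2358 in the *Foxq1* cKO samples, with a log2 fold change of -0.15 and an interval of -0.80 to 0.50. *Keap1* had 632 and 703 in the wild-type and 763 and 371 in the *Foxq1* cKO samples, with a log2 fold change of -0.32 and an interval of -1.44 to 0.80. The groups overlapped for both genes. Nrf2 and Keap1 are controlled mainly at the level of the protein, which was not measured.

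Of the 7 glutathione S-transferases, which couple glutathione to electrophiles, none passed the test. *Mgst3*, a microsomal transferase that also reduces lipid peroxides, had 233 and 189 normalized counts in wild-type and 411 and 431 in the *Foxq1* cKO samples. The *Foxq1* cKO samples were close to each other and their mean was 2.00 times that of wild-type cells. The log2 fold change was 1.002 ± 0.49 (SE), with a 95% interval of -0.19 to 2.196 and an unadjusted p of 0.0860 in limma. *Gstm1*, by far the most abundant transferase with 61.2% to 63.4% of the family per length, and *Gstm5* were lower in both *Foxq1* cKO samples, with log2 fold changes of -0.20 and -0.49. *Gstp1* was estimated at -0.16, and the sparsely read *Gsta4*, *Gstt1* and *Mgst1* had intervals that reached beyond 2-fold in both directions.

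**Figure D3:**
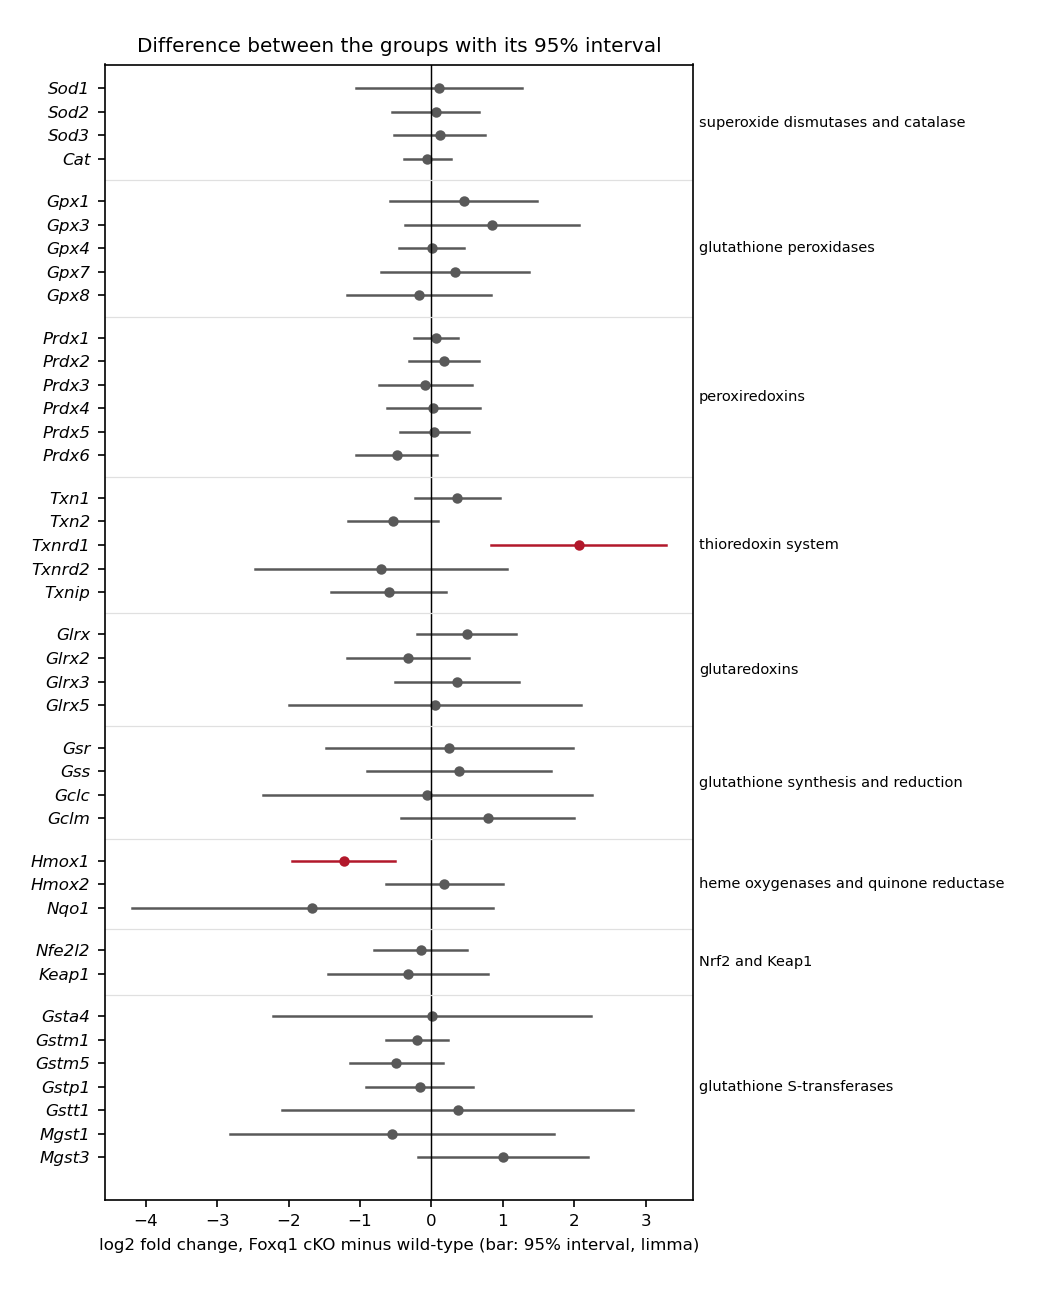
Log2 fold change, *Foxq1* cKO minus wild-type, of the 40 antioxidant genes by role, with the 95% interval from limma as a bar. The intervals of *Txnrd1* (0.84 to 3.29) and *Hmox1* (-1.96 to -0.50), drawn in red, exclude 0, and those of the other 38 genes include it.

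The fit drew the variance of each gene toward a trend with its level, so the precision of the estimates depended on level partly by the method. For 13 of the 40 genes the 95% interval lay within a log2 fold change of -1 to 1, and for the other 27 it reached beyond. The median standard error was 0.343 for the 40 genes and 0.496 for all genes tested. The replicates also lay closer together for the antioxidant genes, with a median absolute log2 ratio between the wild-type samples of 0.298, compared with 0.530 for all genes tested. Between the *Foxq1* cKO samples the corresponding values were 0.246 and 0.413. The part of the level of these genes in these differences was not tested. Estimates for 18 genes lay under 0.2 in absolute log2 fold change, and those for 4 genes were 1 or more.

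The genes were also grouped by properties other than their role. The 11 measured genes usually counted as classical Nrf2 targets included both *Txnrd1* and *Hmox1*, with 6 estimates above and 5 below 0 and a median of 0.0057. Without overlap, 3 of the 11 were higher and 3 lower. The 7 mitochondrial members had a median log2 fold change of -0.08, with none past the test in either direction and 1 lower without overlap. The 5 members of the secretory pathway and the extracellular space had 4 estimates above 0 and a median of 0.12. None of these 5 passed the test, and 1 was higher without overlap. Among the 5 selenoproteins, *Txnrd1* passed the test and 4 of 5 estimates lay above 0, with a median of 0.45. Without overlap, 3 of these 5 were higher. Among all genes tested, 18% were higher and 18% lower without overlap.

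Other genes of the pathway were examined beside the list. Of 20 other Nrf2 targets looked for, 19 were measured, with a median log2 fold change of -0.01. Of the 19, 1 was higher and 2 were lower at an unadjusted p under 0.05 in limma. Among all genes tested 2.17% were higher and 3.05% lower at this threshold. *Fth1*, the heavy chain of ferritin that stores iron, had 162875 and 169772 normalized counts in wild-type and 194908 and 206091 in the *Foxq1* cKO samples, and its log2 fold change was 0.27 (unadjusted p = 0.0107 in limma). *Abcc4*, an efflux transporter, had 3249 and 3427 normalized counts in wild-type and 1265 and 2183 in the *Foxq1* cKO samples, and its log2 fold change was -1.01 (unadjusted p = 0.0147 in limma). *Me1*, the malic enzyme that makes NADPH, had 50.6 and 388 normalized counts in wild-type and 17.4 and 9.16 in the *Foxq1* cKO samples. Its log2 fold change was -3.37 (unadjusted p = 0.0329 in limma), and the wild-type samples differed from each other severalfold. The unadjusted p in limma was 0.0517 for *Fth1* without wild-type 1 and 0.0709 for *Abcc4* without *Foxq1* cKO 1. For *Me1* it was 0.178 without wild-type 2, 0.0731 without *Foxq1* cKO 1 and 0.131 without *Foxq1* cKO 2.

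None of the 16 measured partners and regulators of Nrf2 passed the test, and the smallest p was that of *Mafk*, a small Maf protein that pairs with Nrf2 (log2 fold change -0.79, unadjusted p = 0.0869 in limma). Of 26 other glutathione genes looked for, 19 were measured, and none passed. The smallest p was that of *Ggt1*, which breaks down extracellular glutathione (-1.68, unadjusted p = 0.0789 in limma). The median log2 fold change of the 19 was -0.29, with 13 of 19 estimates below 0. None of 17 other selenoproteins and genes of selenocysteine incorporation passed, and *Trnau1ap*, which acts with the selenocysteine tRNA, had the smallest p (1.09, unadjusted p = 0.135 in limma). Of 21 sources of superoxide and peroxide looked for, 12 were measured, and none passed. The smallest p was that of *Poldip2*, a partner of the NADPH oxidase Nox4 (0.47, unadjusted p = 0.0764 in limma).

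Of 29 other genes with a thioredoxin fold or a related function, 3 were lower and none was higher at an unadjusted p under 0.05 in limma, beside 3.05% lower and 2.17% higher among all genes tested. Besides *Txnrd3* these were *Nxn*, encoding nucleoredoxin, and *Sesn1*, a stress-induced sestrin. *Nxn* had 521 and 642 normalized counts in wild-type and 235 and 296 in the *Foxq1* cKO samples (log2 fold change -1.13, unadjusted p = 0.0434 in limma). *Sesn1* had 4337 and 5134 in the wild-type and 2873 and 3143 in the *Foxq1* cKO samples (-0.65, unadjusted p = 0.0116 in limma). Both genes were lower in each *Foxq1* cKO sample than in each wild-type sample. The unadjusted p in limma for *Nxn* lay between 0.0549 and 0.156 when any 1 sample was left out, and that for *Sesn1* was 0.0585 without wild-type 2 and 0.0700 without *Foxq1* cKO 1.

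Of 11 relatives of *Txnip* and factors that sense glucose looked for, 9 were measured. Of the 9, 2 were lower at an unadjusted p under 0.05 in limma, beside 3.05% of all genes tested. *Arrdc4*, an arrestin related to *Txnip*, had 148 and 202 normalized counts in wild-type and 63.1 and 18.3 in the *Foxq1* cKO samples (log2 fold change -2.31, unadjusted p = 0.0454 in limma). *Mlxip*, a transcription factor that activates *Txnip* when glucose is plentiful, had 534 and 202 in the wild-type and 3.27 and 95.6 in the *Foxq1* cKO samples (-4.02, unadjusted p = 0.0403 in limma). The *Foxq1* cKO samples differed widely from each other for both genes, and *Txnip* itself overlapped between the groups. For *Arrdc4* the unadjusted p in limma was 0.0649 without wild-type 1, 0.118 without wild-type 2 and 0.194 without *Foxq1* cKO 2, and for *Mlxip* it was 0.122 without wild-type 1 and 0.126 without *Foxq1* cKO 1. Each of the 8 genes outside the list that passed the test thus lost its p under 0.05 when at least 1 of the 4 samples was left out, and of the 8 only *Txnrd3* had an adjusted p under 0.05 in DESeq2.

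Some of the 40 genes share sequence with others, so their reads could be divided between copies. Over at least 100 bases at 95% identity or more, 18 of the 40 matched another annotated gene, among them *Sod1*, *Gpx4*, *Prdx1*, *Prdx2*, *Txn1*, *Gstm1* and *Gstp1*. No such match was found for *Txnrd1*, *Hmox1*, *Nqo1*, *Gpx3*, *Mgst3* or *Txn2*, whereas *Gclm* matched 1 other gene over 103 bases. A gene on the opposite strand overlaps 12 of the 40.

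The 7 genes that passed the test, or whose groups did not overlap with an absolute log2 fold change of at least 0.5, were followed through 11 alternative settings with all 4 samples and through leaving out each sample. *Txnrd1* and *Hmox1* had an unadjusted p under 0.05 in all of the 11 settings and in each of the 4 fits with a sample left out. *Gpx3* and *Gclm* had none under 0.05 in either. *Mgst3* had an unadjusted p under 0.05 in 1 of the 11 settings (0.0288, limma without a trend) and in none of the fits with a sample left out.

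**Figure D4:**
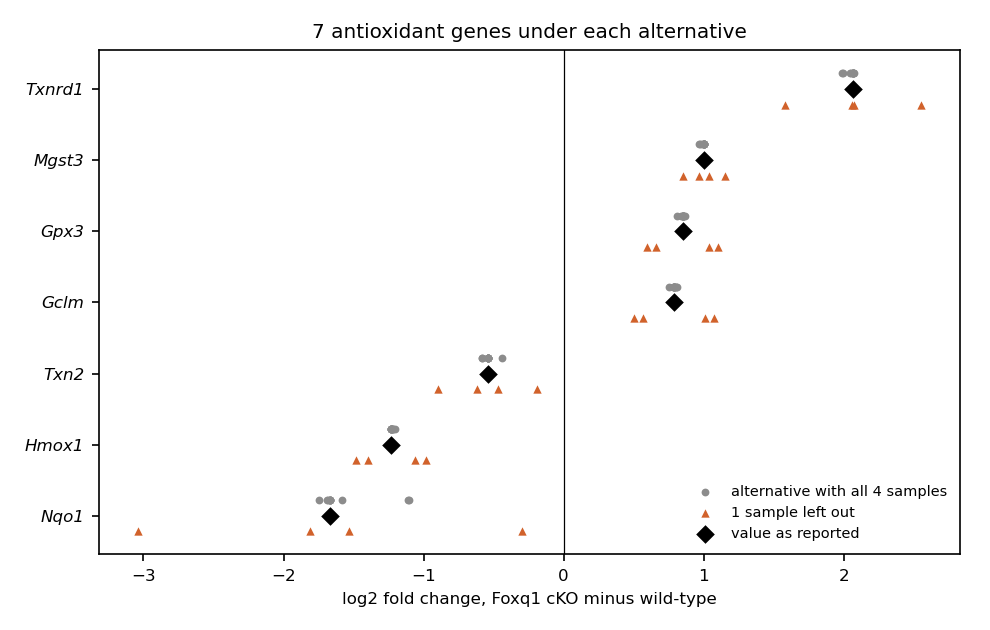
Log2 fold change, *Foxq1* cKO minus wild-type, of 7 antioxidant genes: the reported value (diamonds), the 11 alternatives with all 4 samples (grey points) and the 4 fits with a sample left out (triangles). All points of a gene lie on 1 side of 0, those of *Txnrd1* between 1.58 and 2.55, while *Nqo1* spans -3.04 to -0.30.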

How the data were processed

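Total RNA of CD31-sorted E18 cortex ECs was extracted with TRIzol and sequenced after Smart-seq2, which does not mark strand. The submitters' processing notes name TopHat2 2.0.12, Bowtie2 2.2.3, HTSeq 0.6.0 and mm9. The authors deposited 1 normalized signal per gene and sample. Within a sample all values were whole multiples of its smallest unit (100% of values, tolerance 0.01), which gave back the reads. Groups and replicate numbers came from the labels. Nothing states whether the samples are separate litters or pools, so p-values measure only the spread between these samples. Over all genes tested, the deviations of same-numbered samples from their group means had a correlation of 0.0325. With 2 samples per group this value cannot show whether the samples were paired by replicate number.

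limma 3.58.1 in R 4.3.3 (lmFit, eBayes with a trend) was run on log2(value + 1) for the 12472 genes whose mean reached 10, with Benjamini-Hochberg adjustment. DESeq2 1.42.0 and edgeR 4.0.16 (quasi-likelihood) on recovered reads were alternatives, and the code was tested on simulated data. Exonic lengths came from GENCODE vM21 (GRCm38), and near-identical transcripts from BLAST+ 2.17.0. The genes and gene lists were chosen with earlier results of these data known. Values in every sample were given by rule for genes with an unadjusted p under 0.05 and for genes with groups that did not overlap and an absolute log2 fold change of at least 0.5. Of each pathway list, genes with an unadjusted p under 0.05 were named, or else the one with the smallest p. Values of further genes (such as *Cat* and *Gsr*) were chosen for description after they were seen.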

Additional observations from a re-analysis of the deposited data

How the results depend on the processing

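Of the 40 genes, 2 had an unadjusted p under 0.05 as reported, 4 with DESeq2 (*Txn2* and *Txnip* besides *Txnrd1* and *Hmox1*) and 2 to 4 when each sample was left out, with 4 without *Foxq1* cKO 2, where *Nqo1* (unadjusted p = 0.0294, limma) and *Prdx6* (unadjusted p = 0.0483, limma) were added. Without wild-type 1 *Txnip* (unadjusted p = 0.00931, limma) and without wild-type 2 *Txn2* (unadjusted p = 0.0048, limma) were added. At an adjusted p under 0.05 the count was 0 as reported and 1 with DESeq2. With the replicate number as a block 3 genes had an unadjusted p under 0.05, *Txn2* being added at an unadjusted p = 0.0339 (limma), and 693 of all genes did, compared with 651 without the block. The direction changed with quantile normalization for *Cat* (0.0617), *Glrx5* (-0.0819) and *Gsta4* (-0.10), with length correction for *Gpx4* (-0.0052) and *Gsta4* (-0.0148), and for *Gsr* with DESeq2 (-0.0629) and edgeR (-0.0607). The cause was not tested. With a sample left out the log2 fold change crossed 0 for 20 genes. It ran from -0.0761 to 0.29 for *Sod1*, -0.19 to 0.31 for *Sod2*, -0.20 to 0.44 for *Sod3*, -0.14 to 0.0158 for *Cat*, -0.0181 to 0.0226 for *Gpx4*, -0.00017 to 0.66 for *Gpx7* and -0.47 to 0.12 for *Gpx8*. It ran from -0.042 to 0.40 for *Prdx2*, -0.19 to 0.0173 for *Prdx3*, -0.18 to 0.23 for *Prdx4*, -0.0926 to 0.18 for *Prdx5*, -0.70 to 0.0448 for *Glrx2* and -0.0497 to 0.15 for *Glrx5*. It ran from -0.74 to 1.25 for *Gsr*, -0.52 to 0.40 for *Gclc*, -0.36 to 0.0656 for *Nfe2l2*, -0.84 to 0.20 for *Keap1*, -0.64 to 0.66 for *Gsta4*, -0.29 to 1.03 for *Gstt1* and -1.14 to 0.0457 for *Mgst1*. In the 11 settings with all 4 samples, 426 of the values for single genes of the list kept their direction and side of the threshold, 4 passed it in addition (*Txn2* in 2 settings, *Txnip* in 1, and *Mgst3* without a trend at an unadjusted p of 0.0288 in limma) and 7 changed direction. At 17 to 58 reads per sample *Gstt1*, *Gclc* and *Mgst1* limit what these depths can show.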
